A study of Rattus norvegicus with 21 samples.

Results

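The cytochrome P450 family 2 enzymes that rat liver makes without an inducing chemical were followed in male rats given tert-butylphenyl diphenyl phosphate (BPDP), an aryl phosphate ester. The 9 genes were taken from a fixed list of names, Cyp2c11, Cyp2c12, Cyp2c13, Cyp2a1, Cyp2a2, Cyp2c22, Cyp2c23, Cyp2e1 and Cyp2f4, and matched to the gene symbols annotated for the array. Each had 1 probe set (a group of short DNA probes that together report 1 transcript) naming it alone, so 9 of the 31042 probe sets tested, and 9 of the 14217 genes with a probe set of their own, are described. A further probe set names both Cyp2a1 and Cyp2a2.

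Male Harlan Sprague-Dawley rats received BPDP in corn oil by oral gavage on 4 days, and RNA from the left liver lobe was hybridised to Affymetrix arrays, 1 per sample. The vehicle group, given corn oil alone, has 6 arrays, although the treatment protocol names 5 vehicle rats. The dosed groups have 3 arrays each, at 64.6, 129.2, 258.1, 516.2 and 1032.5 mg/kg. In molar terms the lowest was 0.169 and the highest 2.7 mmol/kg. Every group therefore shares the sex, the strain, the oil and the gavage, and no age of the rats is given in the labels. The labels number the samples without saying how they relate, so p-values measure the spread between these samples.

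Many of these enzymes carry the imprint of sex in the rat. The pituitary releases growth hormone in pulses in males and more steadily in females, and pulses activate the transcription factor STAT5B in hepatocytes. Cyp2c11, a testosterone hydroxylase and a major P450 of the male liver, depends on those pulses, as do Cyp2c13 and Cyp2a2. Cyp2c12, a steroid sulphate hydroxylase, is the female counterpart and responds to steady growth hormone, with HNF6 (Onecut1) as a known activator, while Cyp2a1 is more abundant in adult females. The remaining members have other substrates: Cyp2c22 oxidises retinoic acid, Cyp2c23 makes epoxides from arachidonic acid, Cyp2e1 oxidises ethanol and small solvents, and Cyp2f4 activates naphthalene and is best known from the lung.

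The promoter windows of Cyp2c11, Cyp2c12 and Cyp2c13 are shown because these 3 Cyp2c genes of chromosome 1 gave different results in the tests. Windows come from RefSeq (assembly GRCr8), run 5′ to 3′ on the gene's strand from 250 bases before to 50 bases after the start, and were found for 8 of the 9 members. Capitals mark matches to CAAAGTNCA, a form of the HNF4 element, and to ATTGAT, the core of the HNF6 element, read on both strands. Their positions are chr1:246174966-246175265 on the plus strand for Cyp2c11, chr1:248676985-248677284 on the minus strand for Cyp2c12 and chr1:248787139-248787438 on the minus strand for Cyp2c13.

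Cyp2c11: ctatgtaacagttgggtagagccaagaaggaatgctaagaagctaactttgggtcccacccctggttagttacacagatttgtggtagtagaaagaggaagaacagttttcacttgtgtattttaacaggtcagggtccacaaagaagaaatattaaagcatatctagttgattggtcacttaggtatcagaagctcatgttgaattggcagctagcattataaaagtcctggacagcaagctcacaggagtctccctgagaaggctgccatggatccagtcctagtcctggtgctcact
Cyp2c12: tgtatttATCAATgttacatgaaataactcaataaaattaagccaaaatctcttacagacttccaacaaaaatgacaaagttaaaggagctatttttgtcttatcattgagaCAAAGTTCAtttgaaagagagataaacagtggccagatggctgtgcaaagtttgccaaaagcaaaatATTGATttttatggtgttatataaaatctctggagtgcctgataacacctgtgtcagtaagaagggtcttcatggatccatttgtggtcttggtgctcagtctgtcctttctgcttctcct
Cyp2c13: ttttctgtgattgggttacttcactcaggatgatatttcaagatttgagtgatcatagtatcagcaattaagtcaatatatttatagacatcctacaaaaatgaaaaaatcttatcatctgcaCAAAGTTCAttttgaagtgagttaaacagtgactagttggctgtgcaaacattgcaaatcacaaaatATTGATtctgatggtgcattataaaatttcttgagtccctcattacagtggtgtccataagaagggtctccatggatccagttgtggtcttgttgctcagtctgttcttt

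The Cyp2c12 and Cyp2c13 windows were 83.6% identical over their aligned bases, against 65.3% to 77.7% for the other 27 pairs of members. The HNF4 letters occurred in these 2 members of the 8 and in 1.24% of all 33469 windows, starting 138 bases before the Cyp2c12 start and 127 before that of Cyp2c13. The HNF6 letters also occurred in both, at 243 and 71 bases before the start of Cyp2c12 and at 60 before that of Cyp2c13, and in 8.06% of all windows. The FOXA letters TGTTTNC were found in Cyp2c13, Cyp2c22 and Cyp2c23 and in 21.1% of all windows. GTTAAT (part of the HNF1 element, 7.45% of windows), TTCNNNGAA (STAT5, 8.87%) and TTATGNAA (the PAR bZIP factors Dbp, Tef and Hlf, 3.66%) matched no member's window, on either strand and with no overlap between the marked matches. A match is a description of letters and says nothing of whether the factor binds.

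The arrays were alike in scale: their medians lay between 6.30 and 6.39 log2 units and correlations between arrays between 0.984 and 0.995. Vehicle replicate 6 had the lowest mean correlation with its group, 0.989. All group means of the 9 members lay above the lower quartile of the signals on the arrays, which was 5.10 at most, and the brightest signal of any probe set was 15.35. Markers of hepatocytes, the cells that make these enzymes, averaged 13.79 to 14.00 log2 units on the vehicle arrays. At 1032.5 mg/kg they averaged 13.82 to 13.95, and 1 of the 9 measured, Ahsg, fell (2.85% of all probe sets called lower). Alb, at 15.34 in both groups, lay at the top of the range, and Ttr, Serpina1, Fga and Ahsg lay above 14.5. Signals so high can understate a change, so this average is a weak measure of hepatocyte content.

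In all, 3 of the 9 members were called against the vehicle at some dose, and the set did not move one way. The male enzyme Cyp2c11 fell at the 2 highest doses, the female enzyme Cyp2c12 rose at 129.2, 516.2 and 1032.5 mg/kg, and Cyp2f4 fell at 1032.5 mg/kg. Cyp2c13, Cyp2a1, Cyp2a2, Cyp2c22, Cyp2c23 and Cyp2e1 passed the test at no dose. A member was called when its limma p-value was under 0.05 after Benjamini-Hochberg adjustment across the 31042 probe sets. These calls were not adjusted across doses, and the shares of all probe sets called are given dose by dose below. In a limma F test across the vehicle and all dosed groups, Cyp2c11 and Cyp2c12 passed (adjusted p = 0.00997 and 0.00159). Cyp2f4 did not pass that F test (adjusted p = 0.153), so its change rests on the comparison at 1032.5 mg/kg and on the slope described below.

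**Figure D1:**
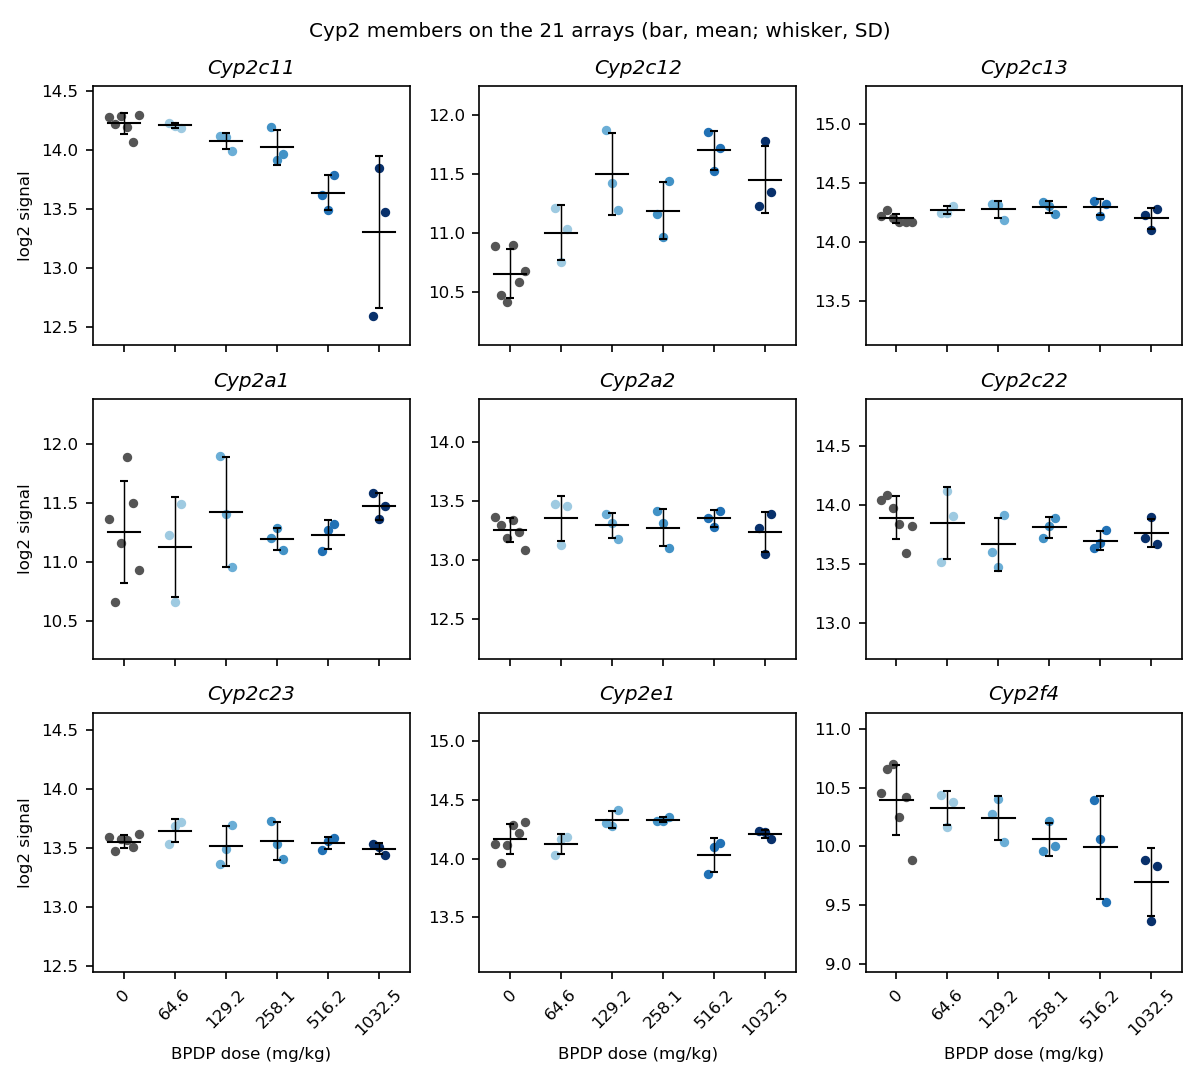
Log2 signal of the 9 members (vertical axis, 2.2 log2 units in each panel, each panel with its own origin) against BPDP dose in mg/kg, with 1 point per array, the group mean as a bar and the SD as a whisker. Cyp2c11 drops at 516.2 and 1032.5 mg/kg, Cyp2c12 lies higher in the dosed groups, Cyp2f4 is lowest at 1032.5 mg/kg, and no dose of the other 6 members passed the test.

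At 64.6 mg/kg limma called none of the 9 members, beside 0.113% of all probe sets called lower and 0.135% called higher. There 1 member had an unadjusted p under 0.05, as did 2530 of the 31042 probe sets. At 129.2 mg/kg 1 member was called higher (0.222% of all probe sets higher, 0.126% lower). At 258.1 mg/kg none was called by limma (1.36% higher, 0.992% lower), with 1 at an unadjusted p under 0.05, beside 3916 of the 31042 probe sets. At 516.2 mg/kg 1 was called lower and 1 higher (2% lower, 4.02% higher), and at 1032.5 mg/kg 2 lower and 1 higher (2.85% lower, 3.30% higher). The median log2 change of the 9 at 1032.5 mg/kg was -0.02, and that of all probe sets -0.01.

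Cyp2c11 gave 14.28, 14.22, 14.29, 14.20, 14.07 and 14.30 log2 units on the 6 vehicle arrays. At 64.6 mg/kg it gave 14.23, 14.21 and 14.19, at 129.2 mg/kg 14.12, 14.11 and 13.99, and at 258.1 mg/kg 14.19, 13.91 and 13.96. It then gave 13.62, 13.49 and 13.79 at 516.2 mg/kg and 12.59, 13.85 and 13.47 at 1032.5 mg/kg. All 6 arrays of the 2 highest doses lay below all 6 vehicle arrays, whereas each lower dose overlapped the vehicle. The group mean went from 14.23 ± 0.09 (SD, n = 6) in the vehicle to 13.64 ± 0.15 (SD, n = 3) at 516.2 mg/kg and 13.30 ± 0.65 (SD, n = 3) at 1032.5 mg/kg.

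Against the vehicle, Cyp2c11 fell by 0.59 on the log2 scale at 516.2 mg/kg (SE 0.16, limma adjusted p = 0.0381), a signal 1.51-fold lower. At 1032.5 mg/kg it fell by 0.92 (SE 0.16, limma adjusted p = 0.00124), a signal 1.89-fold lower, with a 95% confidence interval of -1.26 to -0.58. The log2 changes at the lower doses, -0.02, -0.15 and -0.20, did not pass. The 3 arrays at 1032.5 mg/kg were the most scattered of any group for this gene: without replicate 1, the lowest, the log2 change was -0.56 (limma adjusted p = 0.00276), close to that at 516.2 mg/kg. The call at 1032.5 mg/kg held in all 30 alternatives. The call at 516.2 mg/kg was lost in 11 of 30, among them leaving out any array of its own group or vehicle replicate 1, 2, 3, 4 or 6 (limma adjusted p up to 0.145), while the log2 change stayed between -0.67 and -0.52.

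The signal of Cyp2c11 also fell along the dose order. Its slope per dose step (0 for the vehicle, then 1 to 5) was -0.17 log2 units over the 21 arrays (limma adjusted p = 0.000381) and -0.23 over the 15 dosed arrays alone (limma adjusted p = 0.0147). At 1032.5 against 64.6 mg/kg its log2 change was -0.91 (SE 0.19, limma adjusted p = 0.0157), the 1 member called in that comparison (0.619% of all probe sets lower, 0.857% higher). Between neighbouring doses limma called no member in any of the 4 comparisons, as it called no probe set at all (0% of all). From the lowest pair upward, 2, 0, 2 and 0 members had an unadjusted p under 0.05. Of all 31042 probe sets, 1546, 1567, 2140 and 2886 did. Liver tissue was measured whole, so fewer hepatocytes with the transcript and less transcript per hepatocyte cannot be told apart.

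Cyp2c12 moved in the opposite direction. It gave 10.89, 10.47, 10.42, 10.90, 10.58 and 10.68 log2 units on the vehicle arrays and 11.21, 10.75 and 11.03 at 64.6 mg/kg. It gave 11.88, 11.43 and 11.19 at 129.2 mg/kg, 11.16, 10.96 and 11.44 at 258.1 mg/kg, 11.86, 11.52 and 11.72 at 516.2 mg/kg and 11.23, 11.78 and 11.35 at 1032.5 mg/kg. From 129.2 mg/kg upward every dosed array lay above every vehicle array. At 64.6 mg/kg the groups overlapped.

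Cyp2c12 rose 1.80-fold at 129.2 mg/kg (log2 change 0.84, SE 0.16, limma adjusted p = 0.0191), 2.06-fold at 516.2 mg/kg (1.05, SE 0.16, limma adjusted p = 0.000491) and 1.74-fold at 1032.5 mg/kg (0.80, SE 0.16, limma adjusted p = 0.0032). At 258.1 mg/kg the log2 change was 0.53 (limma adjusted p = 0.0885) and at 64.6 mg/kg 0.35 (limma adjusted p = 0.583). The call at 129.2 mg/kg was lost in 4 of 30 alternatives, 2 of which left out replicate 1 or replicate 2 of that dose (limma adjusted p up to 0.197); the calls at 516.2 and 1032.5 mg/kg held in all 30. Its slope was 0.18 log2 units per step over the 21 arrays (limma adjusted p = 0.000697) but 0.11 over the dosed arrays (limma adjusted p = 0.302), which did not pass. Its group means were 11.50 ± 0.35 at 129.2 mg/kg and 11.45 ± 0.29 at 1032.5 mg/kg (SD, n = 3 each). All comparisons with the vehicle, and the slope over the 21 arrays, rest on the same vehicle arrays. A difference peculiar to that group therefore cannot be told from an effect of BPDP there.

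**Figure D2:**
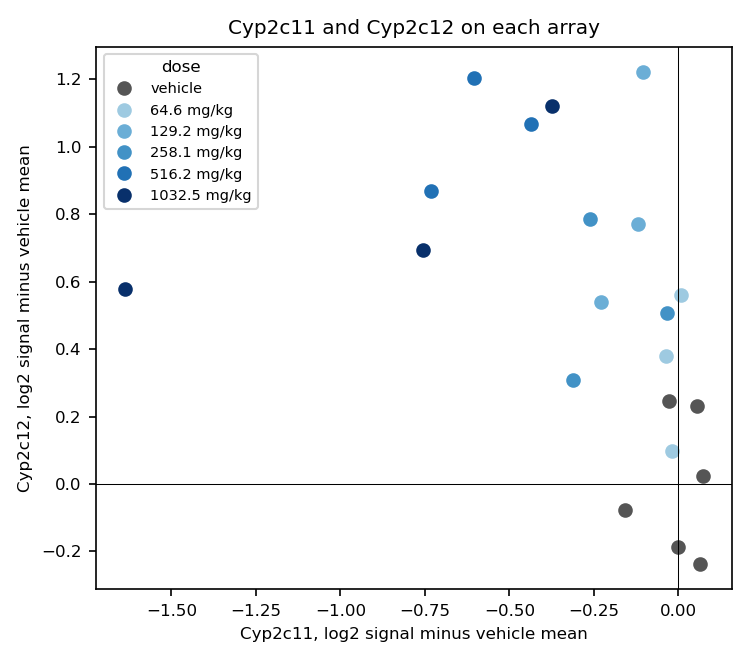
Each point is 1 of the 21 arrays, with the log2 signal of Cyp2c11 minus its vehicle mean on the horizontal axis and that of Cyp2c12 on the vertical axis, coloured by dose. Arrays at 129.2 mg/kg sit high with little shift to the left, and those at 516.2 and 1032.5 mg/kg lie both high and to the left.

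Across the 21 arrays the correlation of Cyp2c11 with Cyp2c12 was -0.42, and after each group's mean was removed it was 0.43, both given as descriptions over arrays that share a dose within each group. On the array with the lowest Cyp2c11, replicate 1 at 1032.5 mg/kg, Cyp2c12 was at 11.23, the lowest of its 3.

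Cyp2f4 gave 10.45, 10.66, 10.70, 10.25, 10.42 and 9.89 log2 units on the vehicle arrays and 10.43, 10.16 and 10.38 at 64.6 mg/kg. It gave 10.28, 10.41 and 10.04 at 129.2 mg/kg, 9.96, 10.22 and 10.00 at 258.1 mg/kg, 10.39, 10.06 and 9.52 at 516.2 mg/kg and 9.89, 9.37 and 9.84 at 1032.5 mg/kg. The highest dose lay below 5 of the vehicle arrays and overlapped the sixth, replicate 6, which was 0.61 log2 units below the mean of the other 5. Cyp2f4 fell by 0.69 on the log2 scale at 1032.5 mg/kg (SE 0.18, limma adjusted p = 0.0205), a signal 1.62-fold lower. That call was lost without replicate 2 of the dose (log2 change -0.53, limma adjusted p = 0.165) and held in the other 29 of 30 alternatives. At 516.2 mg/kg the log2 change was -0.40 (limma adjusted p = 0.198).

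Over the 21 arrays 2 members had a falling slope and 1 a rising slope (4.61% of all probe sets falling, 5.87% rising). The falling ones were Cyp2c11 and Cyp2f4, the latter at -0.13 log2 units per step (limma adjusted p = 0.0041). Over the dosed arrays alone 1 member fell and none rose (0.818% falling, 1.46% rising). There the Cyp2f4 slope was -0.15 (limma adjusted p = 0.0553), just outside the threshold and inside it in 6 of 29 alternatives.

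**Figure D3:**
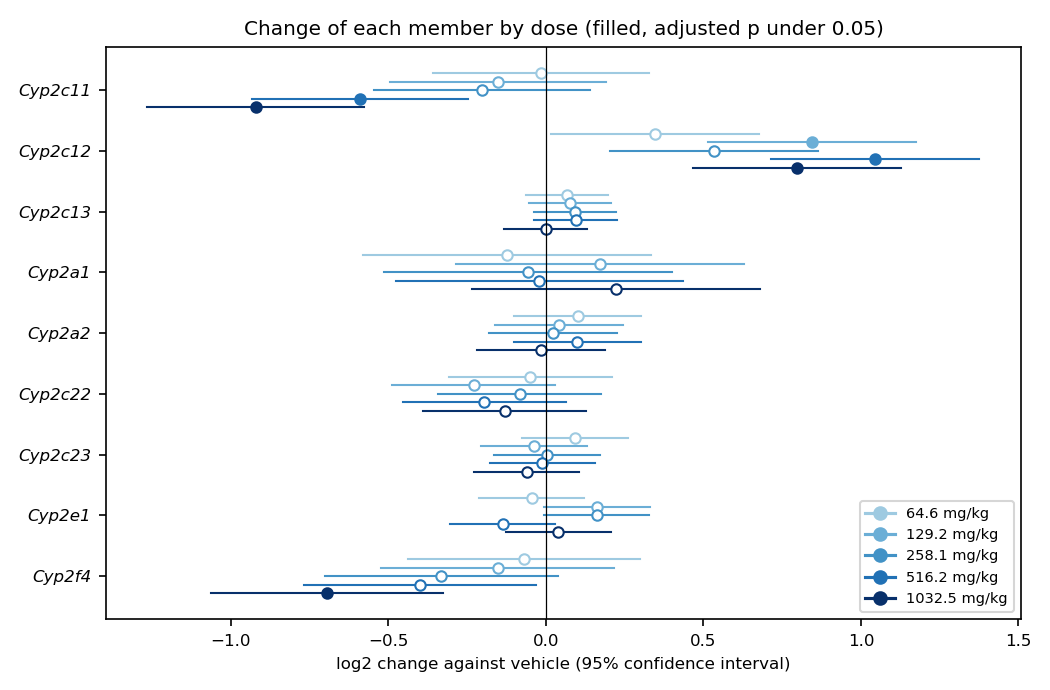
Log2 change against vehicle (horizontal axis) of each member at each of the 5 doses, with 95% confidence intervals from limma; filled points had an adjusted p under 0.05. The filled points are Cyp2c11 at 2 doses, Cyp2c12 at 3 and Cyp2f4 at 1, and the changes of the 6 other members lie between -0.23 and 0.22.

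Among the other sex-dependent members, Cyp2c13 gave 14.17 to 14.27 log2 units with a median of 14.19 on the vehicle arrays and 14.23, 14.10 and 14.28 at 1032.5 mg/kg. Its probe set is of a type that can report several similar transcripts. Cyp2a2 ranged from 13.09 to 13.37 with a median of 13.27 in the vehicle and gave 13.27, 13.05 and 13.39 at the highest dose. Both groups overlapped for both genes, and the log2 changes at 1032.5 mg/kg were 0.00 for Cyp2c13 (95% confidence interval -0.13 to 0.13) and -0.02 for Cyp2a2 (-0.22 to 0.19). Cyp2a1, which is higher in females as Cyp2c12 is, was the most variable member in the vehicle, 11.25 ± 0.43 (SD, n = 6), and gave 11.59, 11.36 and 11.47 at 1032.5 mg/kg, inside the vehicle's range. Its log2 change there was 0.22 (95% confidence interval -0.23 to 0.68, limma adjusted p = 0.682), which leaves room for a rise of up to 1.60-fold. The probe set shared by Cyp2a1 and Cyp2a2 changed by 0.21 at that dose (limma adjusted p = 0.351).

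Of the members with other substrates, Cyp2e1 gave 13.96 to 14.31 log2 units with a median of 14.17 in the vehicle. At 258.1 mg/kg it gave 14.32, 14.31 and 14.36, all above the vehicle, with a log2 change of 0.16 (limma adjusted p = 0.425), while at 516.2 mg/kg it gave 13.87, 14.10 and 14.13 with a log2 change of -0.14 (limma adjusted p = 0.344). Cyp2c22 averaged 13.90 ± 0.18 (SD, n = 6) in the vehicle, and its log2 changes lay below 0 at every dose, the farthest at 129.2 mg/kg (-0.23) and the nearest at 64.6 mg/kg (-0.05), without passing the test. Cyp2c23 averaged 13.56 ± 0.05 (SD, n = 6) in the vehicle and 13.49 ± 0.05 (SD, n = 3) at 1032.5 mg/kg. Across the 30 comparisons of these 6 uncalled members with the vehicle, log2 changes lay between -0.23 and 0.22 and their 95% confidence intervals between -0.58 and 0.68.

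The drop of Cyp2c11 at 1032.5 mg/kg was set against the change of each other member on the same arrays by an exact permutation test over the 9 arrays. The gene and dose were chosen after the values were seen, so these p-values describe that choice and give no separate support. All 8 pairs share the Cyp2c11 values, and the test has 84 splits, so its smallest p is 0.0119. The log2 change of Cyp2c11 minus that of the other gene was -1.72 for Cyp2c12, -0.96 for Cyp2e1, -0.92 for Cyp2c13, -0.91 for Cyp2a2, -0.86 for Cyp2c23 and -0.79 for Cyp2c22, each with an exact permutation p adjusted over the 8 pairs of 0.0159. Against Cyp2a1 the difference was -1.15 (exact permutation, adjusted p = 0.0272). Against Cyp2f4 it was -0.23 (exact permutation, adjusted p = 0.583), so the declines of Cyp2c11 and Cyp2f4 were not distinguished.

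Genes whose signals were most like those of the called members over the 21 arrays were named by Pearson correlation, as a description. For Cyp2c11 these were Sult1c3 (r = 0.90, and 0.64 with group means removed), Cav2 (0.83 and 0.41) and Clca2 (0.83 and 0.51). For Cyp2c12 they were Pparg (0.87 and 0.68), Hook2 (0.86 and 0.56) and Sbspon (0.84 and 0.44). For Cyp2f4 they were Ppp1r14a (0.85 and 0.76), Nt5e (0.84 and 0.70) and Hdlbp (0.83 and 0.85).

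Genes of the growth hormone pathway, which sets the male and female levels of Cyp2c11 and Cyp2c12, were followed beside the members. At 1032.5 mg/kg 2 of the 12 fell and none rose (median log2 change -0.27, against -0.01 for all probe sets, of which 2.85% were called lower and 3.30% higher). Socs2, a feedback inhibitor that STAT5 induces, fell by 1.62 on the log2 scale at 516.2 mg/kg (limma adjusted p = 0.0117) and by 1.52 at 1032.5 mg/kg (limma adjusted p = 0.0136). Its log2 changes at 64.6, 129.2 and 258.1 mg/kg, where Cyp2c11 was not called, were -0.94, -0.87 and -1.21 and did not pass (limma adjusted p = 0.456, 0.568 and 0.0941). Igf1, the growth factor that growth hormone induces, fell by 0.35 at 1032.5 mg/kg (limma adjusted p = 0.0121). No other gene of the list was called there. Stat5b had a log2 change of -0.32 (limma adjusted p = 0.0861). Cux2, a female-biased repressor, had one of 0.38 (limma adjusted p = 0.514), beside 1.22 at 64.6 mg/kg (limma adjusted p = 0.0621). Bcl6, Cish and Jak2 had changes of -0.70, -0.31 and -0.0004 at 1032.5 mg/kg (limma adjusted p = 0.776, 0.844 and 0.999). The Socs2 signal was 7.64 ± 0.93 (SD, n = 6) in the vehicle, more scattered than at 1032.5 mg/kg, 6.11 ± 0.34 (SD, n = 3).

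Of 16 transcription factors known to act on these Cyp2 genes, 4 rose at 1032.5 mg/kg and none fell (median log2 change 0.26, against 3.30% of all probe sets called higher and 2.85% lower). Dbp, a clock-driven activator, was 27.6-fold higher there and 21.5-fold higher already at 64.6 mg/kg, where no member was called (limma adjusted p = 2.1e-10 and 9.2e-10). Its relatives Tef and Hlf rose 2.71-fold and 2.20-fold at 1032.5 mg/kg, and the repressor Nr0b2 rose 3.72-fold. Tef (2.15-fold, limma adjusted p = 0.000551) and Nr0b2 (3.34-fold, limma adjusted p = 0.0171) were also called at 64.6 mg/kg, whereas Hlf was not (1.40-fold, limma adjusted p = 0.589). Dbp and Tef were called higher than the vehicle at all 5 doses. The motifs of Hnf4a and Onecut1 mark the windows of Cyp2c12 and of the uncalled Cyp2c13. At 1032.5 mg/kg their log2 changes were -0.09 (SE 0.12, limma adjusted p = 0.786) and -0.03 (SE 0.59, limma adjusted p = 0.993). At 516.2 mg/kg, where the Cyp2c12 mean was highest, they were -0.13 and 0.84 (limma adjusted p = 0.577 and 0.439). With so large an SE, a sizeable change of Onecut1 either way could have been missed.

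**Figure D4:**
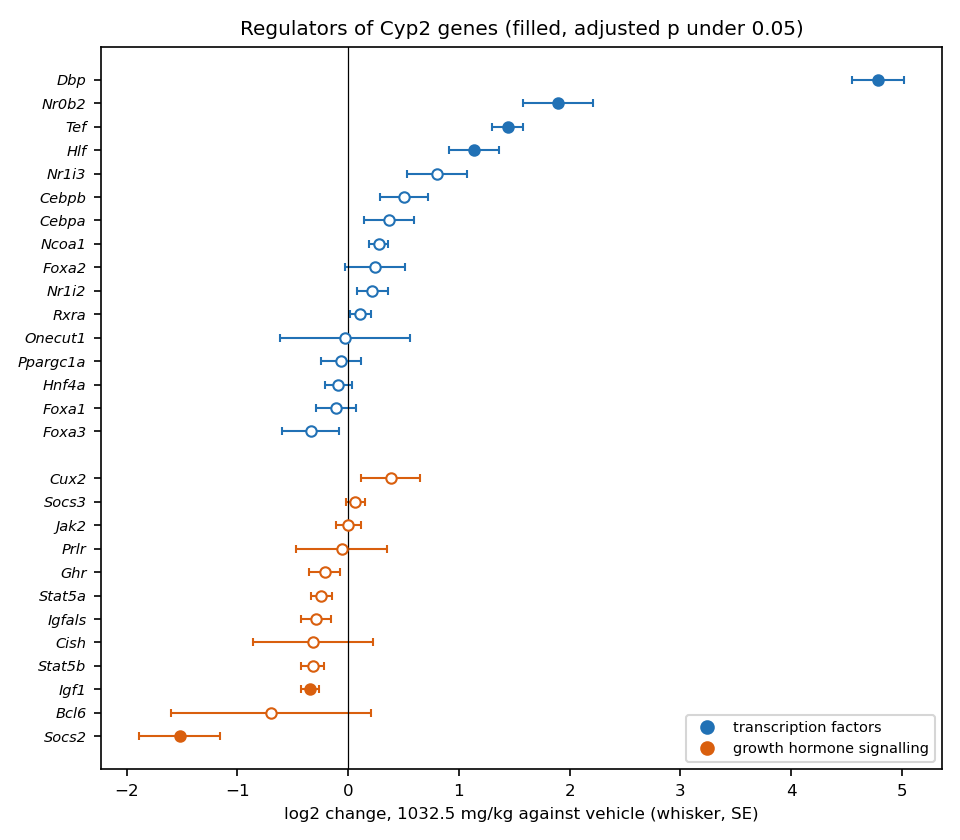
Log2 change at 1032.5 mg/kg against vehicle (horizontal axis, whiskers SE) of 16 transcription factors and 12 growth hormone signalling genes, filled where the limma adjusted p was under 0.05. Dbp stands farthest to the right at 4.78, and Socs2 farthest to the left at -1.52.

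The wider sets around the members were mixed at 1032.5 mg/kg, where 2.85% of all probe sets were called lower and 3.30% higher. Of 12 other genes listed as male-biased, 5 fell, among them Serpina7 (2.40-fold), Car3 (1.35-fold), Ust5r (1.33-fold) and Slco1a1 (1.23-fold). Serpina7 was scattered: 10.82 ± 0.42 (SD, n = 6) in the vehicle, 10.71 ± 0.52 at 516.2 mg/kg and 9.56 ± 1.13 at 1032.5 mg/kg (SD, n = 3 each). The 1 that rose, Hsd17b2, was higher than the vehicle at every dose, 5.52-fold at 64.6 mg/kg and 5.77-fold at 1032.5 mg/kg. Of 12 listed as female-biased, 2 rose, Akr1b7 (6.09-fold) and Adh4 (2.38-fold), and Hao2 fell 2.47-fold. Akr1b7 averaged 5.24 ± 0.90 (SD, n = 6) in the vehicle, near the lower quartile of the arrays, so its fold is uncertain. Sult2a1, Sult2a2, A1bg and Trpm8, also among the 12, averaged below that quartile in every group, where a fall could hardly be seen. At 516.2 mg/kg, where the Cyp2c12 mean was highest, 1 of these 12 rose and 3 fell (4.02% of all probe sets higher, 2% lower). Of the male-biased genes 1 rose and 1 fell there. Cyp2c7, a female-biased Cyp2c gene, averaged 14.22 ± 0.09 (SD, n = 6) in the vehicle, 13.73 ± 0.10 at 516.2 mg/kg and 13.85 ± 0.37 at 1032.5 mg/kg (SD, n = 3 each). It was not called at 1032.5 mg/kg. The bias of single genes was taken from general knowledge. Of 16 other Cyp2 genes, Cyp2j4 rose 2.68-fold, Cyp2j3 1.47-fold and Cyp2c6v1 1.27-fold at 1032.5 mg/kg, and Cyp2t1 fell 1.87-fold. Of 6 microsomal electron donors and partners 2 rose and 1 fell: Por, the reductase that passes electrons to these enzymes, rose 2.73-fold and Cyb5a 1.36-fold, and Pgrmc2 fell 1.35-fold. Of 11 pericentral genes, active in the zone where Cyp2e1 is made, 4 fell, Oat (4.32-fold), Cyp1a2 (2.24-fold), Gulo (1.96-fold) and Glul (1.27-fold). Already at 64.6 mg/kg 2 of these 11 were called lower (0.113% of all probe sets), and at 129.2 mg/kg none (0.126%). At 258.1 mg/kg 3 were called lower and 1 higher (0.992% and 1.36%).

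Some markers of other liver cells changed at both doses where Cyp2c11 was called, and some already where it was not. At 258.1 mg/kg 3 of 12 stellate cell and fibroblast markers fell (0.992% of all probe sets lower). In the same comparison 2 of 6 cholangiocyte markers rose (1.36% higher). Of 9 Kupffer cell markers 7 had a falling slope over the 21 arrays (4.61% of all probe sets) and none over the dosed arrays (0.818%). Mean log2 signals over 9 Kupffer cell markers lay at 9.64 to 10.20 on the vehicle arrays, 9.25 to 9.79 at 516.2 mg/kg and 9.18 to 9.52 at 1032.5 mg/kg. None of the 9 was called at 516.2 mg/kg, and 2, Cd163 and Adgre1, fell at 1032.5 mg/kg. Means over 12 stellate cell and fibroblast markers lay at 7.54 to 7.97 in the vehicle, 6.93 to 7.29 at 516.2 mg/kg and 7.25 to 7.39 at 1032.5 mg/kg. Of these 7 fell at 516.2 mg/kg (median log2 change of the 12 -0.64) and 4 at 1032.5 mg/kg (median -0.43), namely Pdgfrb, Pdgfra, Col3a1 and Reln. Of 8 endothelial markers 3 fell at 516.2 mg/kg and 1, Stab1, at 1032.5 mg/kg. Of 8 lymphocyte markers 1 fell at 516.2 mg/kg and 2, Cd8a and Ms4a1, at 1032.5 mg/kg, and of 6 cholangiocyte markers 2 and then 1, Epcam, rose. Over all probe sets 2% were called lower and 4.02% higher at 516.2 mg/kg, and 2.85% and 3.30% at 1032.5 mg/kg. The mean difference between the 5′ and 3′ control probe sets, a measure of RNA integrity, was -1.95 ± 0.29 (SD, n = 6) in the vehicle, -2.30 ± 0.64 (SD, n = 3) at 516.2 mg/kg and -1.54 ± 0.37 (SD, n = 3) at 1032.5 mg/kg. With it as a covariate, an alternative chosen after the data were seen, Cyp2c11 changed by -0.91 at 1032.5 mg/kg (limma adjusted p = 0.00295) and by -0.60 at 516.2 mg/kg (limma adjusted p = 0.0538). The part of the cell markers in the member results was not tested.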

How the data were processed

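Liver RNA of male rats was measured on 21 Affymetrix 1-colour arrays. The authors deposited a log2 signal for each probe set on each array, summarised by RMA according to the submitters' processing notes. Which program ran RMA, and how, is not given in the sources used here. No further scaling was applied. Precision is limited by the number of arrays, 6 for the vehicle and 3 per dose, and array signals carry no read depth.

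After 57 control probe sets were left out, 31042 were tested. The platform annotation names 1 gene for 20826, several for 436 and none for 9780, and symbols were updated through RefSeq identifiers. A gene was represented by its brightest probe set on average. limma 3.58.1 in R 4.3.3 fitted all 21 arrays with 1 mean per group (lmFit, eBayes). Each dose was compared with the vehicle, each dose with the one below, and the highest with the lowest. Slopes used the dose step, and an F test compared all groups. Adjusted p-values (Benjamini-Hochberg, two-sided) cover all probe sets tested. The procedure was tested on simulated data. Groups and replicate numbers come from sample titles. Same-numbered samples did not deviate together (mean correlations 0.07, 0.05 and -0.04), so the fit had no replicate block. Alternatives covered normalization, scaling, filters, variance settings, array weights, the samples fitted and each array left out in turn.

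All 9 members are named, and of each other list up to 5 genes called at 1032.5 mg/kg by size. Outside that rule, Stat5b, Cux2, Bcl6, Cish, Jak2, Hnf4a, Onecut1, Cyp2c7 and Alb, Ttr, Serpina1 and Fga were named though not called there. So were Sult2a1, Sult2a2, A1bg and Trpm8. The members and gene lists were chosen with earlier results of these data known, and each list is described only by counts and medians.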

Additional observations from a re-analysis of the deposited data

How the results depend on the processing

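The number of members called stayed the same, within 1.5-fold, in 188 of 210 alternative counts. That rule takes a fall from 3 to 2 members as the same. The 188 also include the counts at 64.6 and 258.1 mg/kg, which were 0 and stayed 0. At 129.2 mg/kg the count of 1 became 0 when only the groups compared were fitted and with the replicate block, and 2 with array weights, where Cyp2c22 was called (adjusted p = 0.0185). At 516.2 mg/kg the count of 2 became 1 with array medians subtracted, with the replicate block and with the 5′ minus 3′ control covariate, the last chosen after seeing the data. For the slope over dosed arrays the count of 1 became 2 with cyclic loess, array weights, a trended robust variance, dim probe sets left out or 1 probe set per gene, each time by adding Cyp2f4. Leaving out each array in turn gave 0 to 0 members at 64.6 mg/kg, 0 to 1 at 129.2, 0 to 0 at 258.1, 1 to 2 at 516.2, 2 to 3 at 1032.5, 3 to 3 for the slope over 21 arrays and 1 to 2 for that over dosed arrays. The replicate block changed no other count of members called against the vehicle or for a slope. In that setting, vehicle arrays with a replicate number that no dosed group has add nothing to the comparisons. The calls lost with it therefore cannot be told from the effect of having fewer vehicle arrays.

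Among the log2 changes of the 9 members at 1032.5 mg/kg, signs turned only for uncalled values near 0. Cyp2c13 gave 0.010 with cyclic loess, 0.024 with array medians subtracted and 0.020 with the covariate, and -0.0387 to 0.05003 as arrays were left out. Cyp2a2 gave 0.00891 with medians subtracted and 0.016 with the covariate, and -0.0917 to 0.0772 as arrays were left out. Cyp2e1 gave -0.00202 to 0.0674 as arrays were left out. The causes were not tested. No second probe set naming a single member was found, so that alternative was not run. With 3 arrays per dose and 1 probe set per member, a probe-specific response cannot be told from a change of the transcript, and signals close to the top of the range can understate changes.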

Other observations

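Among the 36 pairs of members, the signals of the male-biased genes Cyp2c13 and Cyp2a2 were the most alike over the 21 arrays (r = 0.68, and 0.70 with group means removed). Cyp2e1 and Cyp2f4 ran opposite within groups, with r = -0.76 after group means were removed against -0.36 over all arrays. These are descriptions of arrays that share a dose within each group, and the pairs were picked after their values were seen.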
